A study of Oryza sativa with 2 samples.

Results

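Glutathione S-transferases (GSTs) were followed in the leaf transcriptome of nontransgenic rice seedlings and of seedlings labelled as overexpressing the homeodomain-leucine zipper factor Roc10. The family was taken as every gene-table row, short RNA rows (identifiers starting EPlOSAG) aside, whose description names a glutathione S-transferase or GST or whose symbol starts with GST. This gave 67 rows of the 37645 rows that are not short RNAs. One of the 67, OS04G0270100, is described as a G1 to S phase transition protein with the alias GST1-HS, which is no transferase. It is counted with the rest, and leaving it out gave 22 of 36 measured rows higher in place of 23 of 37. The rule for members used no measured value.

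The material was leaf RNA from 2-week-old rice (Oryza sativa) of the cultivar Ilmi, sequenced as 1 nontransgenic library (NT) and 1 library labelled PGD1:Roc10, in which PGD1, labelled as a promoter for the whole plant body, drives Roc10. Seeds germinated on MS medium for 4 days at 28 °C before the seedlings were moved to soil. Both groups share the cultivar, the greenhouse and normal growth conditions. Neither the number of plants nor the number of transgenic lines in a library is stated, so the PGD1:Roc10 library may stand for a single line. The level of Roc10 itself was not analysed here, so the genotype label has no check. There are no replicates in either group, so no test between the groups was made, no spread stands beside any value, and every difference below is between 2 libraries.

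GSTs join the tripeptide glutathione to reactive or toxic molecules, which makes these more soluble and marks them for removal. In plants the conjugates are carried into the vacuole by pumps of the ABCC class. Tau and phi enzymes are the large plant classes and are known for the detoxification of herbicides and of products of oxidative stress, whereas zeta enzymes act in the breakdown of tyrosine. Many GST genes lie in tandem arrays of closely similar copies.

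Levels are the authors' FPKM, a fragment number scaled to transcript length and to the size of the library, so that genes of different length can be compared. A gene is called measured when its mean over both libraries is at least 1 FPKM. Differences are log2(FPKM + 1) in PGD1:Roc10 minus NT, and a 2-fold difference means at least 1 on that scale, so that the change of genes with low values is understated. Ratios printed beside 2 FPKM values are plain.

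Mapped read pairs numbered 27683296 in NT and 21866514 in PGD1:Roc10. The tissue label was checked against marker lists. Leaf mesophyll genes, such as CAB2R, a chlorophyll-binding antenna protein gene (8255 FPKM in NT and 7840 FPKM in PGD1:Roc10), had 16 of 22 members measured and summed to 45422 and 43347 FPKM. Of 9 genes in the root list, NAS3 alone was measured, at 17.3 and 13.4 FPKM, and 4 were listed at 0 in both libraries. NAS3 has no description and was listed by its symbol, and whether it marks root was not checked. Genes of dividing cells summed to 16.2 and 18.0 FPKM over 22 members, with 5 measured and the KNOX genes OSH6 and OS07G0129700 listed at 0 in both libraries. The OSH10-like OS03G0673000 was listed at 0 in NT and had 2.63 FPKM in PGD1:Roc10, more than the difference between those sums. Phloem and xylem genes summed to 113 and 104 FPKM over 4 members with none at 0. Most of that was SUT1, at 106 and 95.6 FPKM. CESA7 was also lower in PGD1:Roc10 (3.35 and 2.96 FPKM), whereas CESA4 (3.62 and 4.46 FPKM) and CESA9 (0.744 and 1.09 FPKM) were higher. The part of these differences in the values below was not tested. In bulk leaf RNA, fewer cells of a type and less RNA per cell cannot be told apart.

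Of the 67 family rows, 37 were measured. In PGD1:Roc10, 3 of the 37 stood at least 2-fold higher than in NT and none at least 2-fold lower. Over all measured rows other than short RNAs, 2.08% were at least 2-fold higher and 1.02% at least 2-fold lower, so the family count of 3 lies above that share and rests on few genes. The 3 were OS10G0531400, OS01G0949750 and OS09G0467200. They lie on chromosomes 10, 1 and 9. The authors' deposited table called OS09G0467200, and no other family row, significant, against 0.479% of all rows tested there that were called higher. That table tested 47 of the 67 rows, with 1 library per group.

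OS09G0467200, described as similar to the enzyme GST 23, had 93.1 FPKM in NT and 228 FPKM in PGD1:Roc10. The PGD1:Roc10 library was the higher one, by 2.45 times, or 1.28 on the log2(FPKM + 1) scale. Its q in the authors' deposited table was 0.0432 and its p 0.00025. The gene had the 6th highest level of the 37 in NT and the 2nd highest in PGD1:Roc10. It lies on chromosome 9 (17747274 to 17751263, IRGSP-1.0). The row OS09G0467300, a DUF6 transmembrane protein gene, shares that locus and stayed below 1 FPKM, at 0.116 and 0.612 FPKM. The next genes outwards, OS09G0467100 and OS09G0467400, had ratios of 1.01 and 0.994.

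OS10G0531400, described as the enzyme GST 30, had 24.2 FPKM in NT and 77.2 FPKM in PGD1:Roc10. This ratio of 3.19, or 1.63 on the log2(FPKM + 1) scale, was the largest among the 37 genes and the 201st highest difference among 21679 measured rows. In the authors' deposited table its p was 0.0004 and its q 0.0621, so it carried no call there. The gene closes a tandem run on chromosome 10 (20645751 to 20646880). Its locus also holds OS10G0531300, itself described as similar to a glutathione transferase, at 0.606 FPKM in NT and 0.944 FPKM in PGD1:Roc10.

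OS01G0949750, a gene model similar to GST 28 and described as a fragment, had 8.07 FPKM in NT and 22.7 FPKM in PGD1:Roc10. The ratio was 2.81 and the difference 1.38 on the log2(FPKM + 1) scale. The p in the authors' deposited table was 0.00595 and the q 0.446. The gene next to it on chromosome 1, OS01G0949700, known from the table only by a GST C-terminal domain, was also higher, at 2.26 FPKM in NT and 4.76 FPKM in PGD1:Roc10. Its plain ratio was 2.11, but on the log2(FPKM + 1) scale the difference of 0.82 lay below the 2-fold threshold. It was the closest gene outside that threshold, followed by OS10G0528300 at 0.53 and GSTU6 at 0.52. At a threshold of 1.5-fold OS01G0949700 made a 4th higher gene, against 4.9% of measured rows, and no gene was 1.5-fold lower, against 3.65%. At 3-fold the 1 gene was OS10G0531400, against 1% of measured rows.

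**Figure D1:**
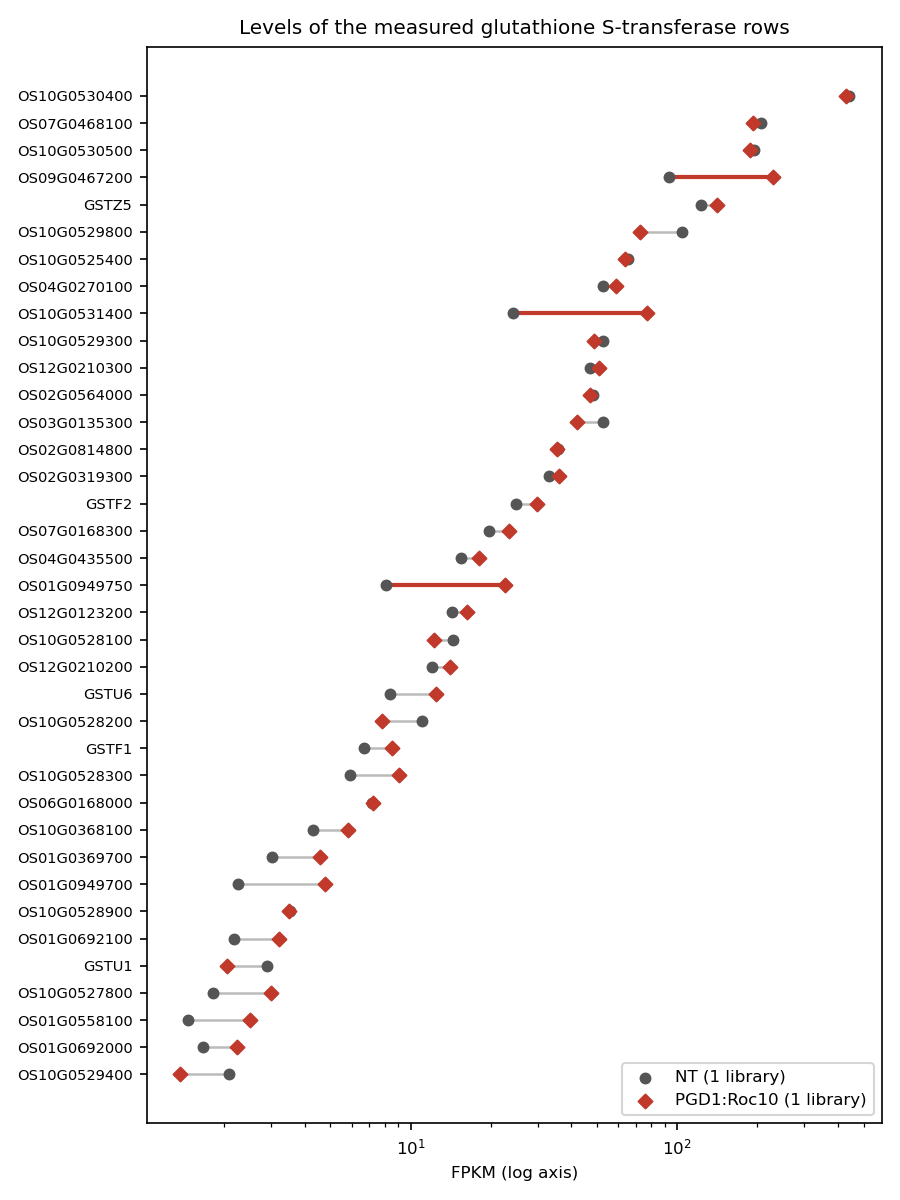
FPKM on a log axis (x) of the 37 measured family rows (y), ordered by mean, with 1 NT library (grey circles) and 1 PGD1:Roc10 library (red diamonds). Red lines join the values of the 3 genes at least 2-fold apart, all with the PGD1:Roc10 value higher, and most other pairs lie close together.

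Of the 10 members at or above 50 FPKM, 2 belong to the 2-fold higher genes described above, OS09G0467200 and OS10G0531400. Several of the others had close levels in both libraries. OS10G0530400, similar to GST Cla47, had the highest level in both, 439 FPKM in NT and 428 FPKM in PGD1:Roc10. Its neighbour OS10G0530500, with the same description, had 194 and 187 FPKM. OS07G0468100, similar to GST 19, had 206 and 192 FPKM. GSTZ5, which carries a zeta-class symbol, was slightly higher in PGD1:Roc10, with 123 FPKM in NT and 141 FPKM in PGD1:Roc10, a difference that turned to -0.01 on the log2(FPKM + 1) scale at the same total FPKM over all rows, a scaling described below.

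Among the other abundant genes, OS10G0529800, similar to Tau class GST protein 4, was the lowest of all 37 by difference. It had 104 FPKM in NT and 72.2 FPKM in PGD1:Roc10, a level 1.44 times higher in NT and a difference of -0.52 on the log2(FPKM + 1) scale. OS10G0525400, similar to GST 34, had 65.3 and 63.7 FPKM. OS10G0529300, a Tau class protein 3-like gene, had 52.6 and 48.7 FPKM. OS03G0135300, similar to GST 10, was lower in PGD1:Roc10, with 52.7 FPKM in NT and 42.1 FPKM. The row OS04G0270100, the phase transition protein that is no GST, had 52.7 and 59.1 FPKM.

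The whole family summed to 1751 FPKM in NT and 1930 FPKM in PGD1:Roc10. The 3 genes at least 2-fold higher account for more than this difference, with 125 FPKM in NT and 328 FPKM in PGD1:Roc10. Most of both sums is OS09G0467200, at 93.1 and 228 FPKM. The 3 genes were picked by their higher values in PGD1:Roc10, so the sum of the other rows must rise less or fall. The remaining 64 rows summed to 1626 FPKM in NT and 1602 FPKM in PGD1:Roc10. These sums are of the FPKM as deposited, and their order depends on the scaling of the libraries. All rows other than short RNAs summed to 857328 FPKM in NT and 837651 FPKM in PGD1:Roc10. With short RNA rows included, the totals were 1.05e+06 FPKM in NT and 1.21e+06 FPKM in PGD1:Roc10. The 10 genes of highest mean held 77.3% of the family's FPKM in NT and 77.5% in PGD1:Roc10. Across the 37 genes the order of levels was much alike in both libraries (Spearman's rho 0.96, n = 37 genes), as over all 21679 measured rows (rho 0.97). This describes genes within 2 libraries, and genes are not replicates.

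Of the 37 measured genes, 23 had the higher value in PGD1:Roc10 and 14 the lower, against 48.8% of all measured rows with the higher value. The median difference was 0.17 on the log2(FPKM + 1) scale, against -0.01 over all measured rows. The direction depends on the scaling of the libraries: at the same total FPKM over all rows, short RNA rows included, 17 of 37 were higher, against 21.1% of all measured rows, and the family median became -0.03, where the median of all rows became -0.20. The family median stood above that of all rows by 0.18 as deposited and by 0.17 at the same total. The number of genes at least 2-fold higher was 3 under each of the 3 scalings tried. By level, 4 of the 10 genes at or above 50 FPKM were higher, 9 of 13 between 10 and 50 FPKM, and 10 of 14 below 10 FPKM. At the same total these counts were 2, 6 and 9. Of all measured rows other than short RNAs, 47.0% at or above 10 FPKM and 51.0% below it were higher as deposited. Shares by level at the same total were not computed.

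**Figure D2:**
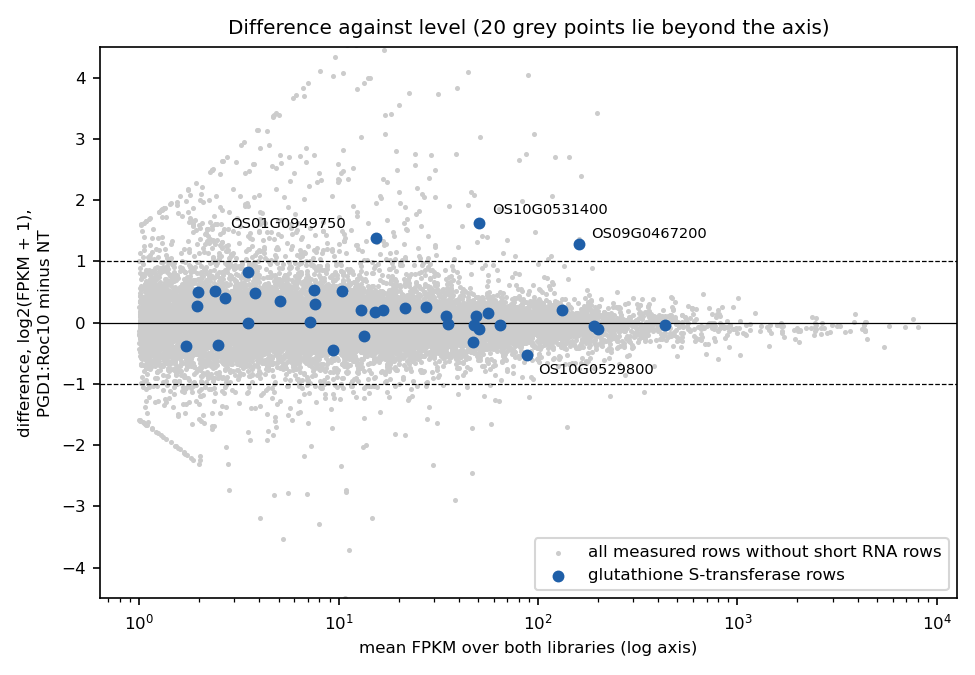
Difference on the log2(FPKM + 1) scale, PGD1:Roc10 minus NT (y), against mean FPKM over both libraries on a log axis (x), for 21679 measured rows (grey) and the 37 family rows (blue), with 1 library per group and dashed lines at 2-fold. The 3 labelled genes above the upper line are the 3 at least 2-fold higher, and no family row lies under the lower line; 20 grey points lie beyond the axis.

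By the classes named in descriptions or symbols, 13 rows were tau, 6 phi and 1 zeta. The zeta row, GSTZ5, has no description, so its class rests on the symbol alone and its function was not checked. Rows on either side of it, OS03G0283000 and OS03G0283200, are described as similar to the maize gene IN2-1, with no zeta class named. The zeta class of GSTZ5 is therefore uncertain. Another 35 rows are named as GSTs with no class, and 11 are known only by a GST domain. None of the 3 genes at least 2-fold higher has a class in its description.

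Of the 11 measured genes named as tau, 6 were higher and 5 lower in PGD1:Roc10, against 48.8% of all measured rows higher. None differed 2-fold, against 2.08% of all measured rows 2-fold higher and 1.02% 2-fold lower. The tau counts were the same at the same total over all rows, against 21.1% of all measured rows higher. In the chromosome 10 run described below, every row with a named class is tau. Rows there with no named class, such as OS10G0531400 and OS10G0530400, may be tau too. The tau counts and sums given here cover the named genes only. Tau genes summed to 208 FPKM in NT and 185 FPKM in PGD1:Roc10, and without OS10G0529800 their order would be the reverse. The highest difference among the named tau genes was that of OS10G0528300, described as Tau class GST protein 4. It had 5.94 FPKM in NT and 9.04 FPKM in PGD1:Roc10. GSTU6 had 8.37 and 12.4 FPKM, and OS10G0527800 had 1.81 and 3.00 FPKM. In these 3 genes the PGD1:Roc10 library was the higher one.

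Of the remaining tau genes, OS07G0168300 (19.6 and 23.5 FPKM), OS10G0368100 (4.31 and 5.82 FPKM) and OS01G0692000 (1.66 and 2.22 FPKM) were also higher in PGD1:Roc10. GSTU1, at 2.90 FPKM in NT and 2.05 FPKM in PGD1:Roc10, and OS10G0529400, at 2.07 and 1.37 FPKM, were lower. OS10G0528900 had 3.52 and 3.49 FPKM.

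Both measured phi genes were higher in PGD1:Roc10 under all scalings, by less than 1.5-fold. Of all measured rows, 48.8% were higher as deposited and 21.1% at the same total over all rows. GSTF2 had 24.7 FPKM in NT and 29.8 FPKM in PGD1:Roc10, and GSTF1 had 6.71 and 8.54 FPKM. Each shares its locus with a row of hypothetical product and higher level, OS01G0764050 (51.1 and 57.8 FPKM) for GSTF2 and OS01G0371300 (11.6 and 13.3 FPKM) for GSTF1. The libraries are strand-specific per the labels, but the sources used here do not give the strand setting of the counting. The reads of these genes may therefore have been divided, as may those of OS01G0369700 and OS10G0529400, the other measured members that share a locus with a measured row. The other 4 phi rows lay below 1 FPKM.

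Among the genes with no named class, the values outside those given above were close in both libraries or low. OS02G0564000 had 48.2 FPKM in NT and 46.9 FPKM in PGD1:Roc10. The GST 18-like neighbours OS12G0210300 and OS12G0210200 had 47.1 and 50.7 FPKM, and a ratio of 1.17 at a mean of 13.0 FPKM. OS12G0123200, described as GST 7, had 14.3 and 16.3 FPKM. OS01G0558100, at 1.46 and 2.50 FPKM, and OS01G0369700, at 3.01 and 4.59 FPKM, were higher in PGD1:Roc10, by 1.71 and 1.52 times.

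Of the 6 measured genes known only by a GST domain, 5 were higher in PGD1:Roc10, against 48.8% of all measured rows. At the same total over all rows 3 of the 6 were higher, against 21.1% of all measured rows. After OS01G0949700 the next was OS01G0692100, at 2.18 FPKM in NT and 3.22 FPKM in PGD1:Roc10. OS04G0435500 had 15.5 and 18.1 FPKM, and OS02G0319300 had 33.2 and 35.9 FPKM. The levels of OS02G0814800 (35.7 and 35.3 FPKM) and OS06G0168000 (7.18 and 7.21 FPKM) were almost the same in both libraries.

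Along the genome, members closer than 200 kb to the next member were joined into runs, of which 4 held at least 4 members. The longest, on chromosome 10 between 20432060 and 20646880, held 21 rows in 215 kb. It summed to 928 FPKM in both libraries as deposited. Of its 13 measured rows, 4 were higher and 9 lower in PGD1:Roc10, against 48.8% of all measured rows higher. At the same total over all rows 4 of the 13 were again higher, against 21.1% of all measured rows. Among the 37 measured rows, the run holds both the highest and the lowest difference. Going along the chromosome, OS10G0528100 (14.5 and 12.2 FPKM) and OS10G0528200 (11.0 and 7.84 FPKM) were lower in PGD1:Roc10, while the next gene, OS10G0528300, was higher. At the far end GSTU6 and OS10G0531400 were both higher, and the Cla47-like pair before them was near equal. Similar copies in a tandem run can share reads, and it is not known how the authors' counting divided such reads, so single values within the run are uncertain.

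**Figure D3:**
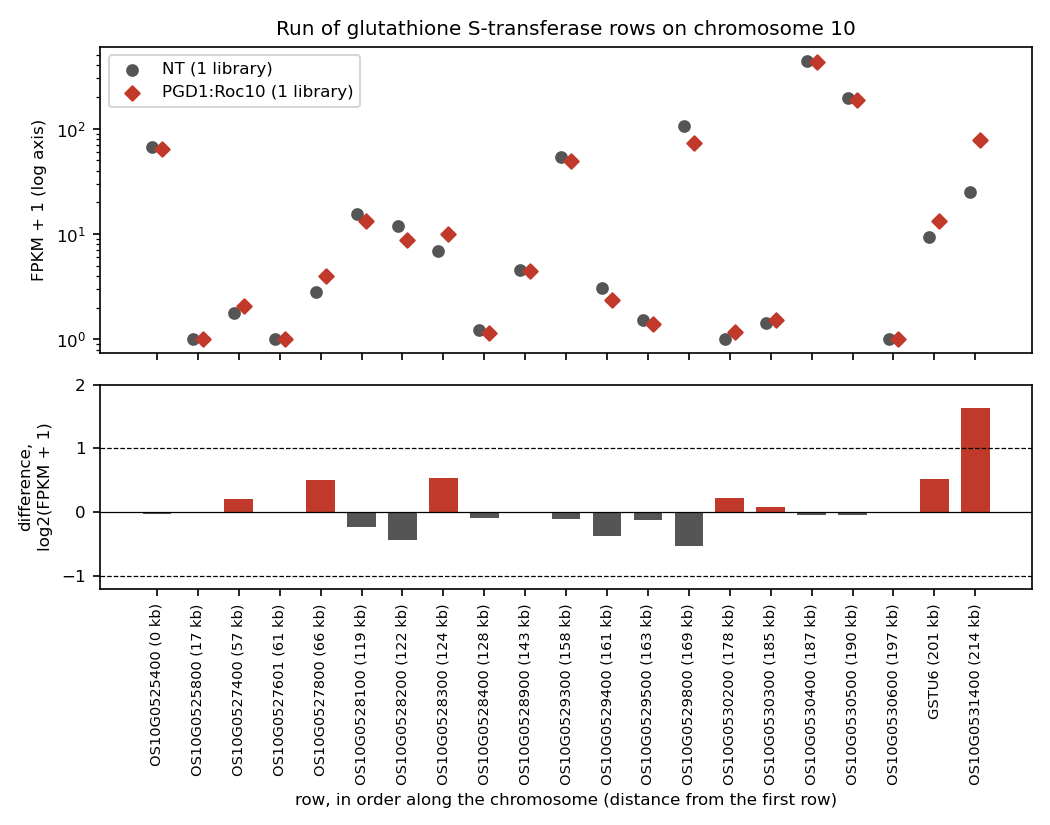
The 21 rows of the chromosome 10 run in order along the chromosome (x, distance from the first row in kb), with FPKM + 1 on a log axis for 1 NT library (grey circles) and 1 PGD1:Roc10 library (red diamonds) above, and the difference on the log2(FPKM + 1) scale below. OS10G0531400, at 214 kb, is the 1 bar beyond the dashed 2-fold line, and OS10G0529800, at 169 kb, is the lowest bar.

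A run of 4 rows on chromosome 1 (41839951 to 41849077) holds OS01G0949700 and OS01G0949750, both higher in PGD1:Roc10. Its other rows, OS01G0949800 and OS01G0950000, also similar to GST 28, were almost silent. OS01G0949800 had 0.0897 FPKM in NT and was listed at 0 in PGD1:Roc10, and OS01G0950000 was listed at 0 in NT and had 0.277 FPKM in PGD1:Roc10. The whole run summed to 10.4 FPKM in NT and 27.7 FPKM in PGD1:Roc10. The gene before it, CML10, a calmodulin-like gene by its symbol, went the other way, with 79.0 FPKM in NT and 53.9 FPKM in PGD1:Roc10.

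A second run on chromosome 1 (15170440 to 15412081) holds 7 rows, of which GSTF1 and OS01G0369700 were measured. Its OS01G0371500, a GST by its description, had 0.0701 FPKM in NT and 0.793 FPKM in PGD1:Roc10. That was the largest difference among the 30 rows below the level filter, 0.74 on the log2(FPKM + 1) scale, and its level stayed under 1 FPKM in both libraries. The run on chromosome 3 (1938239 to 1955959) holds 4 rows, and OS03G0135300 was the 1 measured. Its phi-named rows OS03G0134900 and OS03G0135100 were at 0.0608 FPKM and a listed 0, and at 0.161 and 0.101 FPKM. OS03G0135200 had 0.568 FPKM in NT and 0.985 FPKM in PGD1:Roc10.

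The 30 rows that were not measured summed to 7.14 FPKM in NT and 8.33 FPKM in PGD1:Roc10. Of these, 9 were listed at 0 in both libraries and 6 at 0 in 1 library. Of the others, OS05G0412800, similar to GST 41, was the lowest by difference, with 1.11 FPKM in NT and 0.432 FPKM in PGD1:Roc10. OS10G0481300 went the other way, at 0.0747 and 0.563 FPKM. In a table without counts the reads behind such values are unknown. An exact 0 can be a failed estimate, but the authors' deposited table marks no family row as failed. Each family row listed at 0 in either library is marked there as not tested.

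None of the measured genes that supply, recycle and use glutathione beside the GSTs differed 2-fold, which for 45 genes is near the shares over all measured rows (2.08% higher and 1.02% lower). Over the 7 lists, 45 of 56 genes were measured, with 18 higher and 27 lower in PGD1:Roc10 against 48.8% of all measured rows higher, a median of -0.06 and a range of -0.62 to 0.27 on the log2(FPKM + 1) scale. At the same total over all rows 2 of the 45 were higher, against 21.1% of all measured rows. The directions below are those of the FPKM as deposited. Among the genes named next, the values of OS06G0185900, OS05G0171900, OS01G0902100, OS05G0196100 and OS01G0978100 are less certain, because each shares its locus with another measured row.

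Of the glutathione synthesis genes 5 of 6 were lower in PGD1:Roc10. GSH1-1, whose symbol is that of the first enzyme of the pathway, had 61.4 FPKM in NT and 54.3 FPKM in PGD1:Roc10. The glutathione synthase-like neighbours OS12G0263050 and OS12G0263000 had 63.2 and 52.8 FPKM, and 63.8 and 68.7 FPKM. These are small shifts in both directions. The glutathione reductase-like OS03G0163300, of the enzymes that regenerate reduced glutathione, had 34.6 and 33.4 FPKM.

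Of the glutathione peroxidases, which reduce peroxides, 4 of 6 measured genes were higher, or 1 at the same total over all rows. OS06G0185900 was lower, with 274 FPKM in NT and 222 FPKM in PGD1:Roc10, and OS04G0683850 had 5.35 and 3.18 FPKM. Of the glyoxalases, which use glutathione to clear methylglyoxal, 7 of 11 measured rows were higher, or 1 at the same total, and several of these are described only by a domain shared with other proteins. The lactoylglutathione lyase-like OS05G0171900 had 28.4 FPKM in NT and 18.2 FPKM in PGD1:Roc10, the lowest difference over the 7 lists. GLX-I, at 322 and 388 FPKM, had the highest.

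The ABCC pumps had 1 of 8 measured genes higher. OS05G0196100 had 79.9 FPKM in NT and 72.4 FPKM in PGD1:Roc10, OS01G0902100 had 1.73 and 1.16 FPKM, and the glutathione-conjugate transporter-like OS04G0209300 had 1.73 and 1.25 FPKM. Of the genes for cysteine, the sulfur-bearing part of glutathione, 4 of 11 were higher. The cysteine synthase-like OS01G0978100 had 204 and 185 FPKM. The gamma-glutamyl transferase-like OS01G0151400, of enzymes that break glutathione down, had 44.7 and 47.9 FPKM, and OS01G0151500 had 1.27 and 0.774 FPKM.

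**Figure D4:**
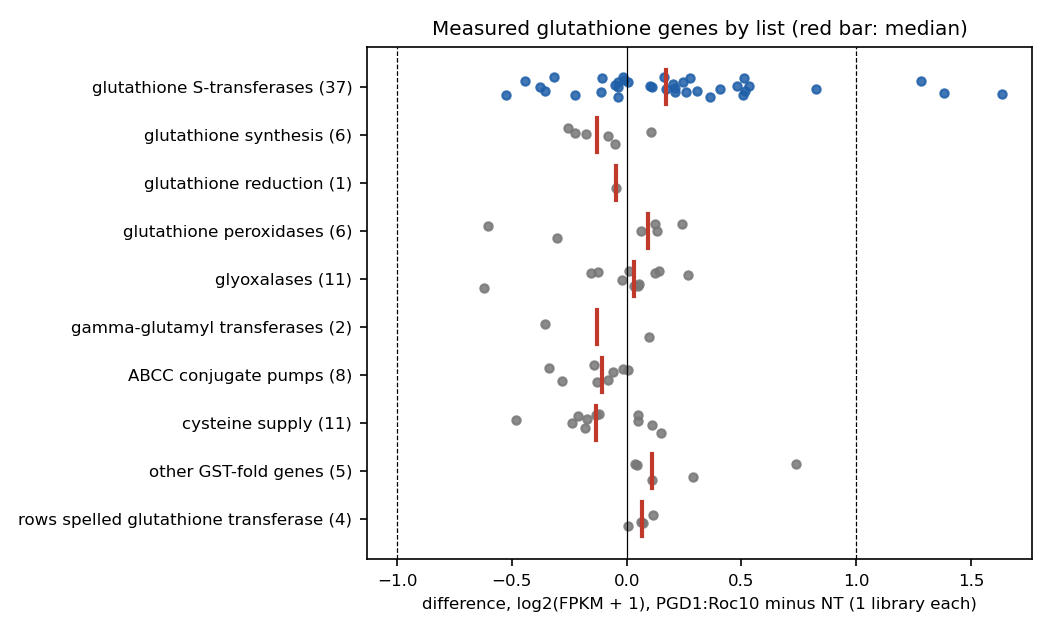
Differences on the log2(FPKM + 1) scale, PGD1:Roc10 minus NT with 1 library each (x), of the measured genes of the GST family and of each related list (y, number of genes in brackets), with a red bar at each median and dashed lines at 2-fold. The 3 points beyond the right dashed line are all in the GST family, and no other list has a point beyond either line.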

How the data were processed

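Leaf RNA of 2 rice libraries was sequenced, 1 NT and 1 PGD1:Roc10. Reads were trimmed, aligned with TopHat 2.0.12 to IRGSP-1.0 (Ensembl Plants release 23) and quantified with Cufflinks and Cuffdiff 2.2.1, per the file headers. The authors deposited FPKM, and the p-value and q-value columns are the authors' own from Cuffdiff on 1 library per group. Other deposited numbers, of reads and mapped pairs, gave the depth. Reads per gene cannot be had from FPKM, and the depth of each value is unknown. Positions come from the authors' locus column. The sources used here do not give the start convention of that column, the strand setting or the library scaling.

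From FPKM, log2(FPKM + 1) differences, plain ratios and counts were computed with Python 3.11.15, NumPy 2.4.6 and pandas 2.3.3, and the counting was tested on simulated data. The files used hold no sequences. The RefSeq gene table supplied matched 5 of the 67 members by name and was not used. Genes are named if measured, at least 1.5-fold apart, among the 10 most abundant, in a run of at least 4 members or called by the authors, with up to 3 per related list. Other genes named were chosen after their values were seen. Members and lists were chosen with earlier results of these data known. Alternatives were other pseudocounts, scalings, level filters, thresholds and membership rules. The authors' separate sheet of selected genes was not used.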

Additional observations from a re-analysis of the deposited data

How the results depend on the processing

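With 1 library per group no replicate could be left out. No paired analysis was possible because each group has 1 library. The count of genes at least 2-fold higher was 3 as reported, 4 at a pseudocount of 0.1 or a 1.5-fold threshold, 2 without the most extreme member and 1 at a 3-fold threshold. Of all measured rows, 2.08% were 2-fold higher as reported and 3.2% at a pseudocount of 0.1. At the 1.5-fold threshold 4.9% of them were higher, and at 3-fold 1%. No gene was 2-fold lower under any alternative, against at most 1.95% of all measured rows. Scaling both libraries to the same total FPKM over all rows turned the family median from 0.17 to -0.026. The authors' deposited table called 1 member significant; of its q values for members 0 were at most 0.01, and of its unadjusted p values 3 were at most 0.01. Adding rows spelled glutathione transferase gave 27 of 41 genes higher, and leaving out rows known only by a domain gave 18 of 31. Both stand against 48.8% of all measured rows. These last alternatives were chosen after seeing the data. The count of genes with the higher value fell from 23 of 37 to 17 of 37 at the same total FPKM over all rows. There the share of all measured rows fell from 48.8% to 21.1%. The count was 25 of 37 at the same total over rows other than short RNAs, against 54.5% of all measured rows. It was 34 of 58 with no level filter and 17 of 28 at a mean of at least 5 FPKM. The shares of all rows other than short RNAs under these filters were 50.3% and 47.8%. Unknown depth limits statements on genes near or below 1 FPKM.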

Other observations

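Genes of the GST fold that the family names do not cover were looked at after the data were seen. All 5 measured ones had the higher value in PGD1:Roc10, or 2 of 5 at the same total FPKM over all rows, and none was 2-fold higher, against 48.8% of all measured rows with the higher value as deposited and 21.1% at the same total. OS03G0283200, similar to IN2-1, a herbicide safener-induced gene of maize, had 4.98 FPKM in NT and 8.96 FPKM in PGD1:Roc10, a ratio of 1.80. It lies next to GSTZ5 on chromosome 3 (9717252 to 9719884). The dehydroascorbate reductase gene OS05G0116100, whose product uses glutathione to regenerate vitamin C, had 156 and 169 FPKM, and shares its locus with another measured row. The elongation factor 1-gamma genes, whose protein carries a GST-like domain, had 62.7 and 64.8 FPKM (OS02G0220500), 32.5 and 39.9 FPKM (OS02G0220600), and 54.5 and 55.9 FPKM (OS06G0571400).

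Another 9 rows spell the name as glutathione transferase, and 4 of these were measured. All 4 were higher in PGD1:Roc10, by at most 0.12 on the log2(FPKM + 1) scale, against 48.8% of all measured rows higher. At the same total over all rows 0 of 4 were higher, against 21.1% of all measured rows. The highest level was that of OS11G0588300, at 39.8 FPKM in NT and 43.2 FPKM in PGD1:Roc10. OS10G0529700 and OS10G0525500, which lie within the chromosome 10 run, had 27.4 and 28.9 FPKM, and 7.42 and 7.80 FPKM.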
